A study of Homo sapiens with 3 samples.

Results

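Genes listed for their link to interferon were followed across 3 human cell lines: the ADP-ribosyltransferase genes PARP9, PARP10, PARP12 and PARP14, the ubiquitin ligase gene DTX3L, and the nuclear body genes PML, SP100, SP110 and SP140. They were taken by gene symbol from the platform annotation of the arrays. Of these 9 genes, 8 had a transcript cluster (the array's unit of measurement for a gene) of their own, among 14410 genes compared. SP140 had no such cluster: 2 clusters were listed with both SP140 and its neighbour SP140L, so their signal cannot be given to either gene, and they are described apart from the 8. Each of the 8 genes had 1 cluster.

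Exon arrays measured total RNA, and each line had a single array. The colon adenocarcinoma line HT-29, grown in McCoy's 5A medium with serum, had received interferon gamma (IFN-γ) at 200 U/ml for 24 h. MCF10A, a mammary epithelial line, was grown with horse serum, EGF, hydrocortisone, cholera toxin and insulin. MDA-MB-436, a breast adenocarcinoma line, was grown in L-15 medium with serum and without CO2, and neither mammary culture is labelled as treated. An untreated HT-29 array was not analysed here: line, medium and cytokine cannot be told apart in any difference that involves HT-29. There were no replicates, so no test was possible and each difference describes these arrays only. In such bulk RNA, fewer expressing cells and less RNA per cell also cannot be told apart.

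PARP proteins transfer ADP-ribose from NAD to proteins, as single units or as chains, and macrodomains bind or remove it. PARP9 carries macrodomains and acts in a complex with DTX3L, a ubiquitin ligase of the Deltex family; PARP14, also a macrodomain protein, and PARP10 and PARP12 add single ADP-ribose units. PML is the scaffold of PML nuclear bodies, in which SP100 is a lasting constituent, and SP110 and SP140 are related chromatin-binding proteins best known from leukocytes. Interferons signal through JAK kinases to DNA elements near their target genes: IFN-γ chiefly to gamma-activated sites (GAS), and type I interferons, with IRF9, to interferon-stimulated response elements (ISRE).

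The promoters below are shown because several of the genes that were highest in HT-29 carry letters of these elements near a listed start. RefSeq promoter windows of GRCh38.p14, from 250 bases before to 50 after each listed start, were found for 7 of the 9 genes, with more than 1 listed start for PARP9, SP100 and SP110; PARP10 and PML had no entry. The windows were searched on both strands for GAAA followed by any 2 bases and GAAA again (ISRE-type) and for TTCNNNGAA (GAS-type, whose reverse complement is the same pattern). Positions count from the listed start, with -1 the last base before it. Capitals mark a match, and each sequence runs 5′ to 3′ on the strand of its gene.
DTX3L (chr3:122564322-122564351, plus strand, bases -16 to 14): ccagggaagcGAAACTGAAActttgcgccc
PARP9, from its listed start nearer to DTX3L (chr3:122564322-122564351, minus strand, bases -51 to -22): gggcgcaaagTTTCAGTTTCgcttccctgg
PARP14 (chr3:122680739-122680838, plus strand, bases -100 to -1): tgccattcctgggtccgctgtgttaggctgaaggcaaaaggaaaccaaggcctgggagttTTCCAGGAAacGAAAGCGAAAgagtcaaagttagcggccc
PARP12 (chr7:140062952-140063051, minus strand, bases -100 to -1): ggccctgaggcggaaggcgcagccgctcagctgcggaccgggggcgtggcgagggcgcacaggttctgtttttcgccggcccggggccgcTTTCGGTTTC
SP110, from its listed start further inside the gene (chr2:230220003-230220032, minus strand, bases -48 to -19): cacttttcttTTCTCGGAAgcccggcccct

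The DTX3L and PARP9 lines are the same 30 bases read on opposite strands: from these starts the genes run away from each other, and a single ISRE-type match lies at bases -6 to 4 of DTX3L and at -41 to -32 of PARP9. In PARP14 a GAS-type match at -40 to -32 was followed by an ISRE-type match at -29 to -20, with no shared base. The ISRE-type match of PARP12 ended at base -1, on the strand opposite to the gene. SP110 held a GAS-type match before 1 of its 2 listed starts, and neither pattern was in the windows of SP100, SP140 or SP140L. Over all 35116 promoter windows of this length, 3.57% held the ISRE-type and 7.66% the GAS-type pattern. A match is a description of letters and not a measured binding site. In RefSeq, PARP9 overlaps DTX3L and SP110 overlaps SP140 on opposite strands, and whether the arrays keep such pairs wholly apart was not tested.

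The arrays had median intensities of 75.1 in MCF10A, 81 in MDA-MB-436 and 75.9 in HT-29. Background was taken as the 95th percentile of 228 olfactory receptor genes, 29.9, and the highest of their values was 101. All 8 genes were above 29.9 on all 3 arrays. Of 9 measured colon epithelial markers, 8 were above background in HT-29, against 3 in MDA-MB-436 and 2 in MCF10A. Of 6 basal mammary markers, 6 were above it in MCF10A, 3 in MDA-MB-436 and 4 in HT-29. Of 8 mesenchymal markers, 8 were above it in MDA-MB-436, 6 in MCF10A and 2 in HT-29. Each list thus had its highest count in the line it was listed for, but the basal and mesenchymal lists were shared between lines. CDX2, an intestinal transcription factor, was low on all arrays (74.8 in HT-29), and VIM was about as bright in MCF10A (1933) as in MDA-MB-436 (2037.5).

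The leukocyte markers bear on SP110 and SP140. PTPRC, the pan-leukocyte surface gene, was at 3.05 in MCF10A, 4.16 in MDA-MB-436 and 3.72 in HT-29, and CD3D and CD3E were also under background on every array. Of the 10 measured leukocyte markers, 2 were above background in MCF10A, 4 in MDA-MB-436 and 4 in HT-29. Their intensities summed to 289 in MCF10A, 436 in MDA-MB-436 and 4534.9 in HT-29, where lysozyme (LYZ, also a gut secretory gene) made up 4319.6. The B cell gene MS4A1 had the order of SP110, at 16.6 in MCF10A, 30.3 in MDA-MB-436 and 68 in HT-29, at least 2.27-fold higher in HT-29 than in MCF10A by the background bound. CD79A, another B cell gene, was under background on every array. The monocyte gene CD14 was highest in MCF10A (156, against 86.5 in MDA-MB-436 and 38.9 in HT-29) and NCAM1 in MDA-MB-436 (229). All arrays are of cultured cell lines, and whether any leukocytes contributed to the SP110 and SP140 values was not tested. Of 6 fibroblast markers 1 or 2 were above background on each array, and of 6 endothelial markers 1.

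HT-29 with IFN-γ had the highest value of 7 of the 8 genes, and MCF10A the lowest of 7. Against MCF10A, HT-29 exceeded 4-fold for 6 of the 8 and was as much lower for 0. Of all genes, 4.34% passed 4-fold upwards and 3.5% downwards. The 8 genes had a median log2 difference of 2.79, beside 0.11 over all genes. Against MDA-MB-436, HT-29 exceeded 4-fold for 4 of the 8 and was as much lower for 0, where 4.21% of all genes were higher and 4.68% lower. The median of the 8 was 1.83, beside 0.08. In MDA-MB-436 against MCF10A, 1 of the 8 was higher past 4-fold, PARP9, and 0 lower, where 3.65% of all genes were higher and 2.01% lower. The median of the 8 was 1.23, beside 0.02. The comparisons share arrays and are not independent of each other. Where 3 intensities follow a gene name without the lines, they stand for MCF10A, MDA-MB-436 and HT-29, in this order.

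**Figure D1:**
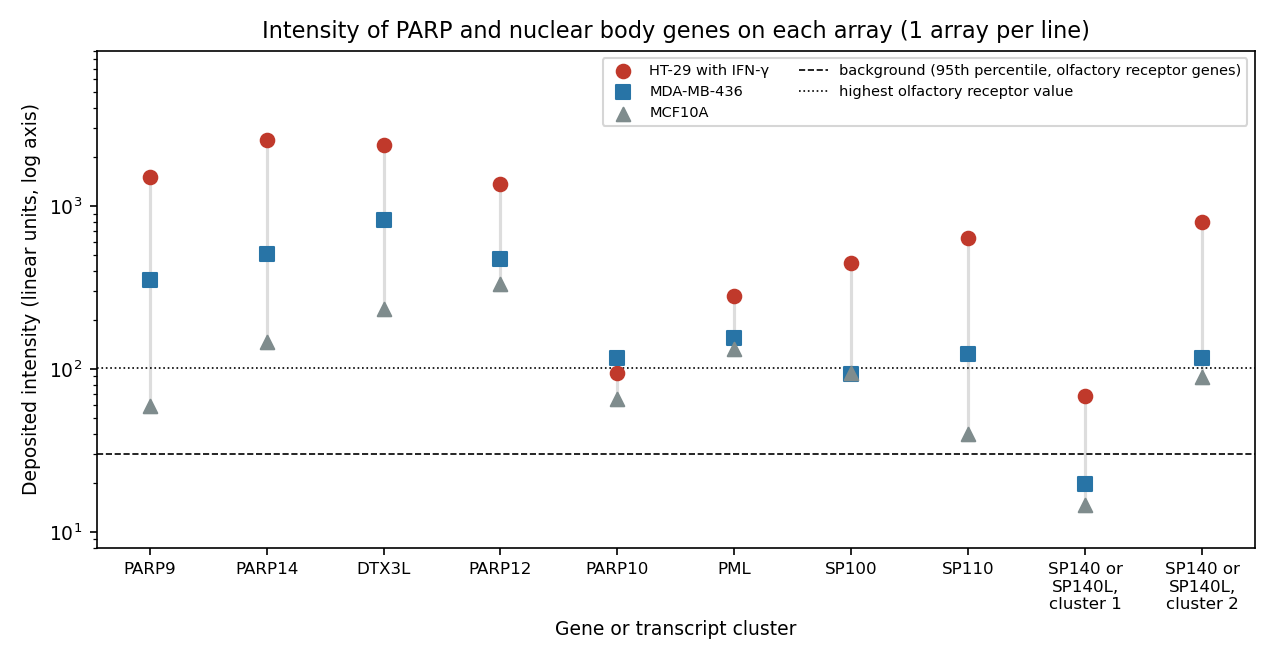
Deposited intensity (log axis) of the 8 genes and of the 2 clusters listed with SP140 and SP140L on each of the 3 arrays, 1 point per array, with the background of 29.9 (dashed) and the highest olfactory receptor value of 101 (dotted). HT-29 with IFN-γ is highest for every gene except PARP10, and MDA-MB-436 lies clear of MCF10A for PARP9, PARP14, DTX3L and SP110.

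PARP9, whose protein reads ADP-ribose through its macrodomains, had an intensity of 59.2 in MCF10A, 350 in MDA-MB-436 and 1518.9 in HT-29. The 3 arrays were thus far apart. The MCF10A value lay under the highest olfactory receptor value and just under the 99th percentile of these receptor genes, 60.6. HT-29 was 25.7-fold above MCF10A and 4.33-fold above MDA-MB-436, and MDA-MB-436 was 5.92-fold above MCF10A. These were the widest HT-29 to MCF10A and MDA-MB-436 to MCF10A differences of the 8 genes. The first, 4.68 on the log2 scale, was the 118th highest of 14410 genes. Against the 99th percentile in place of the MCF10A value, the folds were 25.1 for HT-29 and 5.78 for MDA-MB-436. After quantile normalization the log2 difference between HT-29 and MDA-MB-436 was 1.85, under 4-fold.

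DTX3L, the ubiquitin ligase partner of PARP9, was at 234 in MCF10A, 820 in MDA-MB-436 and 2388.8 in HT-29. It had the same order as PARP9 with smaller steps: HT-29 was 10.2-fold above MCF10A and 2.91-fold above MDA-MB-436. MDA-MB-436 was 3.51-fold above MCF10A, a log2 difference of 1.81 that became 2.06, past 4-fold, after quantile normalization.

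PARP14, a mono-ADP-ribosyltransferase with macrodomains, was at 146 in MCF10A, 511 in MDA-MB-436 and 2553.2 in HT-29. HT-29 was 17.5-fold above MCF10A and 5-fold above MDA-MB-436. MDA-MB-436 was 3.5-fold above MCF10A, and this log2 difference too, 1.81, passed 4-fold after quantile normalization (2.01).

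PARP12, a zinc finger mono-ADP-ribosyltransferase, was at 332 in MCF10A, 472 in MDA-MB-436 and 1366.9 in HT-29. HT-29 stood apart, while the mammary lines differed by 1.42-fold. Its difference from MCF10A, 4.12-fold, was just past the threshold and was under it after quantile normalization (1.97 on the log2 scale).

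PARP10, a mono-ADP-ribosyltransferase, did not follow the other PARP genes described so far. Its intensity was 65.8 in MCF10A, 116 in MDA-MB-436 and 94.3 in HT-29, so MDA-MB-436 was highest and only that array exceeded the highest olfactory receptor value. HT-29 was 1.43-fold above MCF10A and 1.24-fold below MDA-MB-436.

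PML, the nuclear body scaffold, was at 133 in MCF10A, 155 in MDA-MB-436 and 281 in HT-29. HT-29 was 2.11-fold above MCF10A and 1.81-fold above MDA-MB-436, and the mammary lines differed by 1.17-fold. PML was therefore among the genes past 2-fold and not 4-fold. At 2-fold, 7 of the 8 genes were higher in HT-29 than in MCF10A, where 10.2% of all genes were.

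SP100, a nuclear body constituent, was at 94.8 in MCF10A, 92.7 in MDA-MB-436 and 445 in HT-29. HT-29 was 4.7-fold and 4.81-fold above the mammary lines, whose values lay 1.02-fold apart and under the highest olfactory receptor value. SP110, a relative of SP100, was at 39.6 in MCF10A, 123 in MDA-MB-436 and 635 in HT-29. HT-29 was 16-fold above MCF10A and 5.15-fold above MDA-MB-436, and MDA-MB-436 was 3.11-fold above MCF10A. The MCF10A value was the lowest of the 8 genes on any array and lay under the 99th percentile of the olfactory receptor genes, 60.6, against which these folds were 10.5 for HT-29 and 2.03 for MDA-MB-436. SP100 and SP110 thus had similar differences between HT-29 and MDA-MB-436 (2.26 and 2.37 on the log2 scale) and unlike ones between the mammary lines (-0.03 and 1.64).

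The 2 clusters listed with SP140 and SP140L were both highest in HT-29. The dimmer was at 67.9 in HT-29 and under background in MCF10A (14.5) and MDA-MB-436 (19.7), so HT-29 was at least 2.27-fold higher than either, against the background intensity. The brighter was at 89.3 in MCF10A, 116 in MDA-MB-436 and 796 in HT-29, 8.92-fold and 6.86-fold above the mammary lines, which differed by 1.3-fold.

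**Figure D2:**
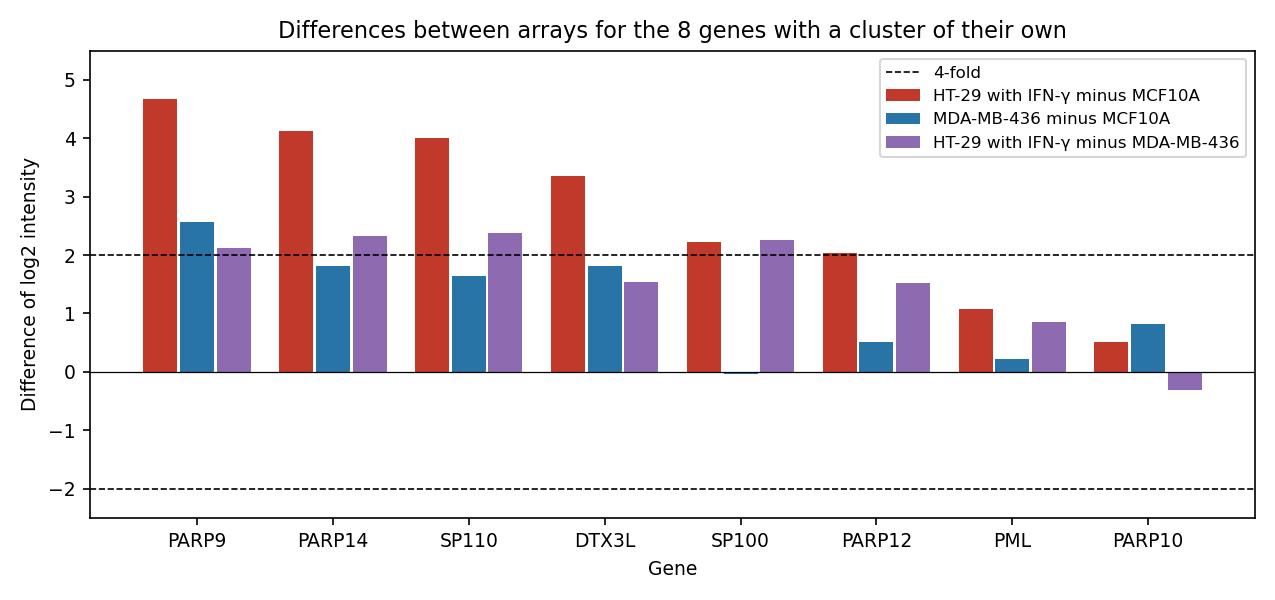
Differences of log2 intensity between single arrays for the 8 genes, with 4-fold marked by dashed lines; genes are ordered by HT-29 with IFN-γ minus MCF10A. PARP9 is 4.68 in that comparison and 2.57 in MDA-MB-436 minus MCF10A, while SP100 is 2.23 and -0.03 and PARP10 is 0.52 and 0.82.

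The genes differed in where MDA-MB-436 lay between the other arrays. On the log2 scale, with MCF10A at 0 and HT-29 at 1, MDA-MB-436 lay at 0.55 for PARP9, 0.54 for DTX3L, 0.44 for PARP14 and 0.41 for SP110. These 4 genes, PARP9, DTX3L, PARP14 and SP110, were also the ones past 2-fold in MDA-MB-436 over MCF10A, where 8.76% of all genes were. MDA-MB-436 lay at 0.25 for PARP12, 0.21 for PML and -0.01 for SP100, and beyond HT-29 for PARP10, at 1.59. The 3 genes of chromosome 3 were thus all in this upper group, joined by SP110 of chromosome 2.

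Likeness of pattern was measured as the Euclidean distance between the 3 log2 values of each gene after its own mean was subtracted, so it rests on 3 arrays only. Among the 8 genes the closest pair was PARP14 and SP110, at 0.12, on different chromosomes. PARP9 and PARP14 were 0.56 apart, PARP9 and DTX3L 0.94, PARP12 and SP100 0.54, and the farthest pair was PARP9 and PARP10, at 2.96. PARP9 and DTX3L, which share the sequence shown above, were therefore farther apart than each was from PARP14 (0.63 for DTX3L).

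Among 10708 other genes above background on some array, ULBP1, SOCS1 and DDX60 were nearest to PARP9, at 0.093 to 0.247. HLA-F, IFIH1 and PLEKHH2 were nearest to DTX3L (0.063 to 0.074), and STX19, SP110 and CAMTA1 to PARP14 (0.107 to 0.145). SOCS1 encodes an inhibitor of JAK kinases, IFIH1 an RNA sensor and HLA-F a class I presentation protein. PARP14, NEDD9 and FAAH2 were nearest to SP110 (0.125 to 0.138), ZBP1, SPATA6L and TRIB3 to SP100 (0.018 to 0.040), and PELI1, FOXA2 and ZNF592 to PARP12 (0.029 to 0.083). ZBP1 encodes a nucleic acid sensor. The functions of SOCS1, IFIH1, HLA-F and ZBP1 were singled out, and whether the nearest genes as a set share a function was not tested. For the flatter genes, KCNK12, PHPT1 and DIRAS1 were nearest to PARP10 (0.010 to 0.022) and TOB2, LOC399975 and MOAP1 to PML (0.011 to 0.013). Nearest to the median pattern of the 8 were ARSD, ICA1, NFATC2, BEST1 and NPEPPSP1, at 0.031 to 0.095. Of these 27 genes other than members, 13 were under background on at least 1 array, so their distances and places rest on values with no measured level: SOCS1, DDX60, STX19, CAMTA1, PLEKHH2, NEDD9, FAAH2, ZBP1, SPATA6L, FOXA2, LOC399975, NFATC2 and BEST1.

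Gene order gave a local comparison. In RefSeq order PARP9, DTX3L, PARP15 and PARP14 are consecutive on chromosome 3. PARP15, the gene between DTX3L and PARP14, was under background on every array, at 3.29 in MCF10A, 3.66 in MDA-MB-436 and 5.42 in HT-29. On the outer sides, the importin gene KPNA1 was at 865, 826 and 731, and HSPBAP1 at 98.2, 71.3 and 88.9. In neither was HT-29 the highest array. Further out, WDR5B had the order of PARP9, at 67.4, 134 and 149, 2.22-fold higher in HT-29 than in MCF10A. SEMA5B also had this order, but its arrays lay within 1.07-fold. FAM162A (294, 266 and 146) and SLC49A4 (959, 849 and 561) were lowest in HT-29.

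On chromosome 2, SP110, SP140, SP140L and SP100 are neighbours. The transporter gene SLC16A14, before SP110, was at 255 in MCF10A, 19 in MDA-MB-436 and 24.4 in HT-29, at least 8.53-fold lower in HT-29 than in MCF10A. CAB39, after SP100, was at 941, 490 and 1230.3. SLC16A14 had its highest value in MCF10A, unlike the SP genes. CAB39 was, like them, highest in HT-29, 1.31-fold above MCF10A and 2.51-fold above MDA-MB-436. The mammary lines differed by 1.92-fold for CAB39 and by 1.02-fold for SP100.

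The nearest 3 genes on either side of any of the 9, not counting the 9, numbered 31. The median log2 difference of the 31 between HT-29 and MCF10A was 0.10. HT-29 passed 4-fold over MCF10A for 1 of them upwards and 1 downwards, beside 4.34% and 3.5% of all genes. The higher one was TBXAS1, the thromboxane synthase gene next to PARP12, at 118 against 21.6, at least 3.94-fold by the background bound, and the lower one was SLC16A14. In MDA-MB-436 against MCF10A, 1 was higher, the retinol transporter gene STRA6 near PML (308 against 29.4, at least 10.3-fold), and 1 lower, again SLC16A14.

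**Figure D3:**
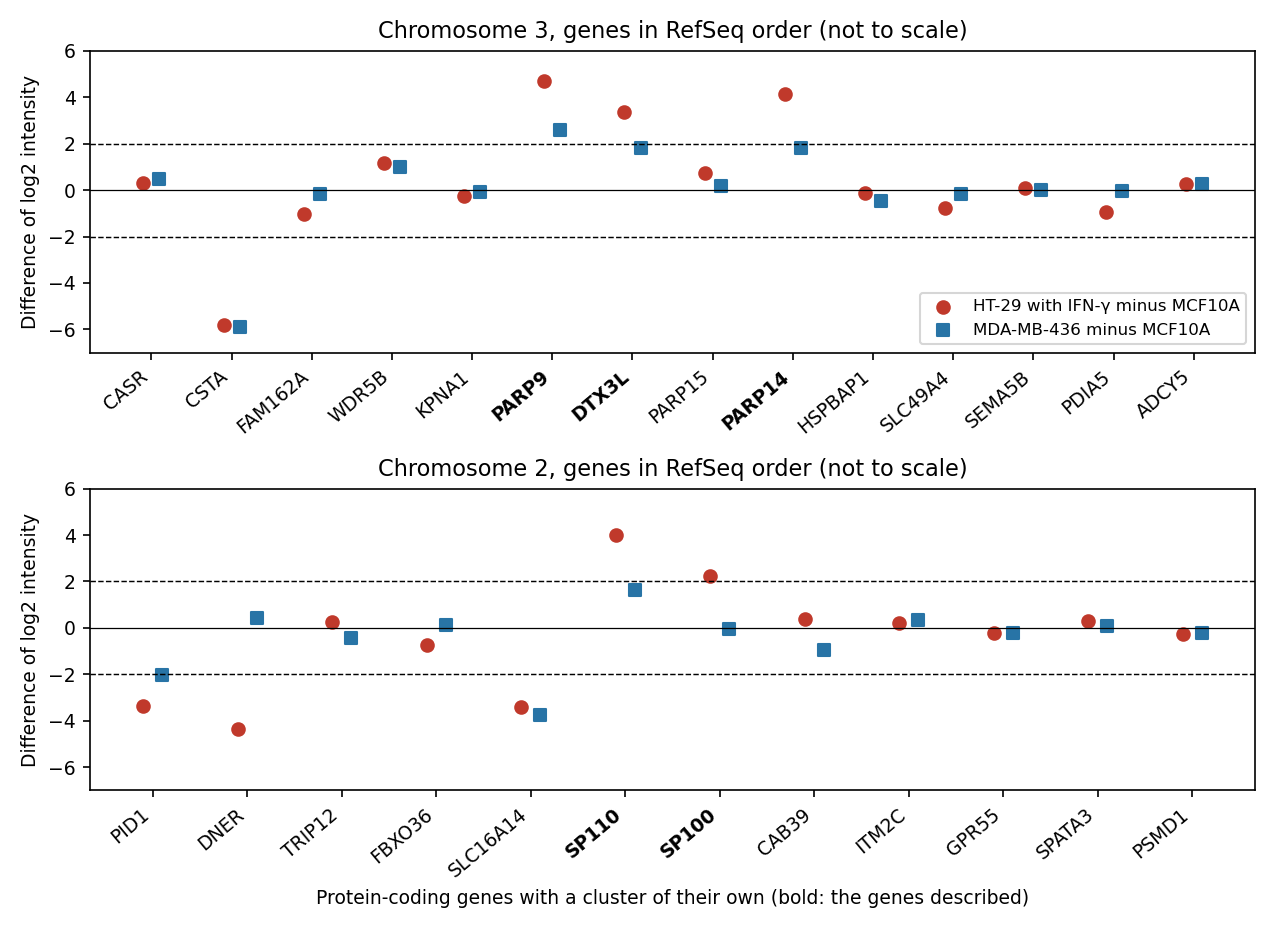
Differences of log2 intensity from MCF10A for HT-29 with IFN-γ and for MDA-MB-436, for protein-coding genes with a cluster of their own in RefSeq order around PARP9 to PARP14 (chromosome 3) and SP110 to SP100 (chromosome 2); spacing is not to scale and dashed lines mark 4-fold. PARP9, DTX3L, PARP14, SP110 and SP100 are the only genes drawn that lie above 4-fold in HT-29, and PARP15, between DTX3L and PARP14, is under background on all arrays.

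The rest of the PARP family was a list drawn up with earlier results of these data known. Of 12 other PARP genes measured, HT-29 passed 4-fold over MCF10A for 0 and was as much lower for 1. Of all genes, 4.34% were higher and 3.5% lower, so for 12 genes these counts are near the share over all genes. The median log2 difference of the 12 was 0.74, beside 0.11 over all genes. The 1 lower gene of the 12 was PARP1, the main nuclear PARP of DNA damage. It was at 977 in MCF10A, 644 in MDA-MB-436 and 215 in HT-29, 4.55-fold lower in HT-29 than in MCF10A. PARP2, its relative, was at 265, 521 and 162. Both were thus dimmest in HT-29. PARP6 was at 182, 359 and 644, 3.55-fold higher in HT-29 than in MCF10A. ZC3HAV1, the antiviral zinc finger protein also called PARP13, was at 451, 780 and 1248.5, 2.77-fold higher. PARP3 (120, 252 and 372) and PARP8 (203, 345 and 583) had the same order, 3.09-fold and 2.87-fold higher. TNKS (205, 280 and 111), like PARP1 and PARP2, was dimmest in HT-29. In MDA-MB-436 against MCF10A 0 of the 12 passed 4-fold, beside 3.65% of all genes upwards and 2.01% downwards. The median of the 12 there was 0.61, beside 0.02 over all genes. TIPARP had no cluster of its own.

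Enzymes that remove ADP-ribose made up a further list, with other genes that encode a macrodomain. In HT-29 against MCF10A, 0 of its 7 measured genes passed 4-fold upwards and 1 downwards (median 0.39), beside 4.34% and 3.5% of all genes. That 1 was the macrodomain histone gene MACROH2A2, at 368 in MCF10A, 351 in MDA-MB-436 and 26.8 in HT-29, at least 12.3-fold lower. Its paralog MACROH2A1 was at 1244.8, 651 and 1121.8, and OARD1, an ADP-ribose hydrolase, at 80.6, 60.2 and 154. Of the other Deltex genes 2 were measured, and DTX1 was under background throughout. DTX3 was above background only in MDA-MB-436, at 57.3 against 13.5 in MCF10A, which passed 4-fold as measured but is at least 1.92-fold by the background bound.

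Of 8 other nuclear body genes, only ISG20, an interferon-stimulated exonuclease gene, passed 4-fold. It was at 53 in MCF10A, 88.5 in MDA-MB-436 and 484 in HT-29, 9.13-fold and 5.47-fold higher in HT-29. Of all genes, 4.34% and 4.21% passed 4-fold upwards in these comparisons. The histone chaperone gene DAXX was at 161, 149 and 158, and its partner ATRX at 118, 117 and 199. TDP2 was at 670, 390 and 699. The median log2 difference of these 8 was 0.31 in HT-29 and 0.06 in MDA-MB-436, each against MCF10A, and the latter was -0.04 after median centring. SUMO pathway genes, whose products modify PML and SP100, had 0 of 10 past 4-fold in any comparison. For 10 genes this is near the shares over all genes, which ran from 2.01% to 4.68% per direction and comparison. The SUMO medians were -0.22 for HT-29 and -0.15 for MDA-MB-436 against MCF10A, the latter 0.04 after quantile normalization. The widest ranges in this list were those of RNF111 (163, 358 and 437), SENP7 (37.8, 67.5 and 30) and PIAS3 (374, 319 and 171).

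Genes of NAD supply, the substrate of PARP enzymes, had 0 of 8 past 4-fold in any comparison, also near the shares over all genes. The list medians were 0.39 for HT-29 and 0.08 for MDA-MB-436 against MCF10A, the latter -0.02 after median centring. NAMPT, the main salvage enzyme, was at 981 in MCF10A, 1121.6 in MDA-MB-436 and 1508.7 in HT-29. NMNAT3 (20.4, 60.2 and 28.2) and NAPRT (477, 913 and 997) had the widest ranges, followed by NADSYN1 (307, 164 and 295). CD38, an NAD-consuming enzyme, was under background on all arrays.

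In interferon signalling, HT-29 passed 4-fold over MCF10A for 5 of 12 measured genes and was as much lower for 0 (median 1.16). Of all genes, 4.34% were higher and 3.5% lower (median 0.11). IRF1, an early IFN-γ target and transcription factor, was at 94.9 in MCF10A, 326 in MDA-MB-436 and 3960.6 in HT-29. IRF9, the DNA-binding part of the type I interferon complex, was at 80.5, 916 and 1345.5. The pair differed in MDA-MB-436: IRF9 was 11.4-fold above MCF10A there and IRF1 3.44-fold. JAK2 was at 56.5, 163 and 405, IRF7 at 58.8, 117 and 553, and SOCS1 at 8.29, 40.7 and 211. In MDA-MB-436 against MCF10A 2 of the 12 passed 4-fold, IRF9 and SOCS1, the latter at least 1.36-fold by the background bound. Of all genes, 3.65% were higher past 4-fold there. The receptor genes differed less, IFNGR1 at 491, 316 and 942 and IFNAR1 at 235, 304 and 164. STAT2 and USP18 had no cluster of their own.

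**Figure D4:**
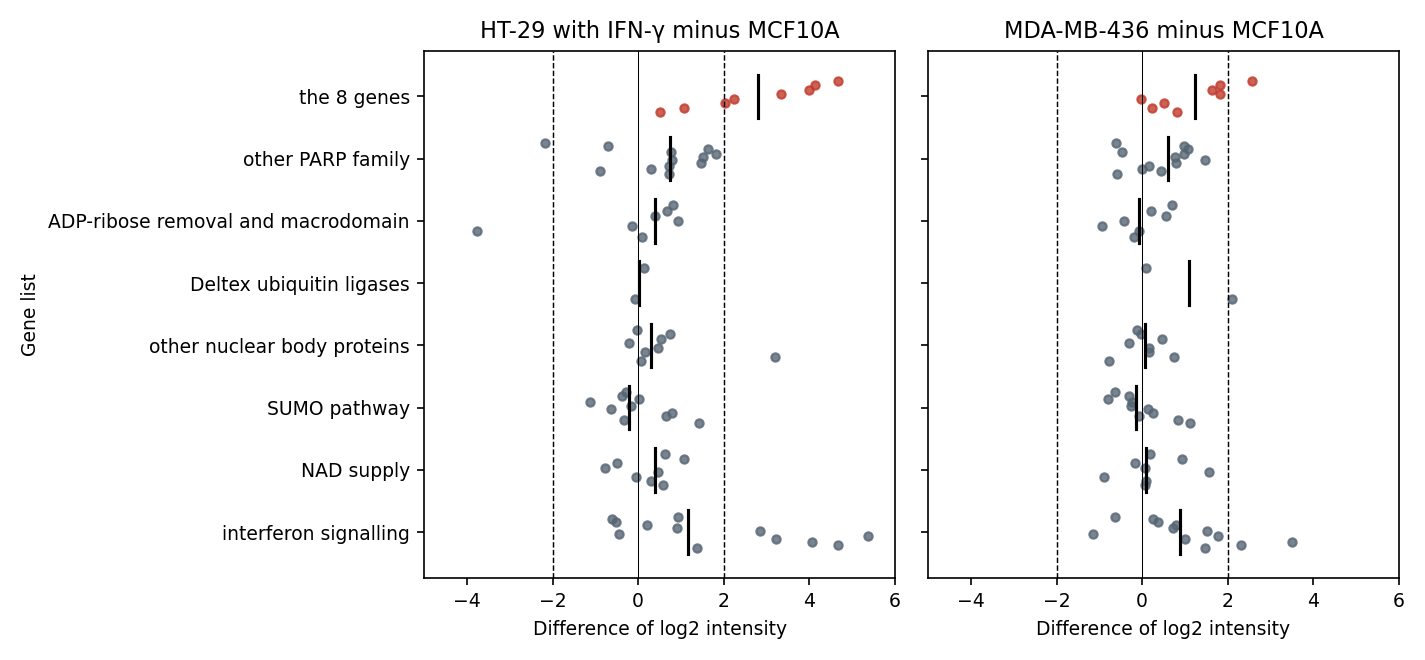
Differences of log2 intensity from MCF10A for the 8 genes (red) and for 7 lists of related genes (grey), 1 point per gene, with the median of each list as a black bar and 4-fold as dashed lines; the left panel is HT-29 with IFN-γ and the right panel MDA-MB-436. The 8 genes have medians of 2.79 and 1.23, interferon signalling 1.16 and 0.89, and the other PARP family 0.74 and 0.61.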

How the data were processed

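The authors deposited 1 linear intensity for each transcript cluster and array; summary, background correction and normalization are not given in the sources used here, and the submitters' processing notes list hg19. Of 18708 clusters, 14733 had a single symbol, updated through gene identifiers against RefSeq (GRCh38.p14, used for names, gene order and promoter sequences; the array files hold no coordinates). A gene with several clusters was given the one with the highest mean, leaving 14410 genes. Intensities were log2 transformed and subtracted between arrays. A difference counted when it was at least 2 (4-fold) and the higher value exceeded 29.9. A fold against a value under background is computed against the background and written as "at least". The number of arrays limits the precision. The members and lists were chosen with earlier results of these data known. Named genes were all members, list genes past 4-fold or otherwise up to 3 of widest range, nearest neighbours and nearest patterns. A few further list genes were named after their values were seen. These were PARP2, PARP3, PARP6, PARP8, TNKS, ZC3HAV1, MACROH2A1, OARD1, DTX1, DAXX, ATRX, TDP2, CD38, NAMPT, IFNGR1 and IFNAR1. Counting was tested on simulated data. The scripts ran on Python 3.11.15 with pandas 2.3.3 and numpy 2.4.6, and figures were drawn with matplotlib 3.10.9.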

Additional observations from a re-analysis of the deposited data

How the results depend on the processing

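Of the 24 differences of the 8 genes (8 genes in 3 comparisons), 0 changed sign under the 8 alternatives, and 4 crossed 4-fold under a change of scaling or filter, each under quantile normalization and given with its gene. These alternatives covered the scaling (quantile normalization or centring on the median), the filter (none, or the olfactory receptor 99th percentile), a floor at the background, the fold (2 or 8) and taking a gene's clusters by their median. Quantile normalization shifted the median of all genes by -0.11 for HT-29 minus MCF10A and by -0.08 for MDA-MB-436 minus MCF10A. Centring shifted it by -0.11 for MDA-MB-436 minus MCF10A. Both shifts between the mammary lines exceed in size the SP100 difference between them (-0.03). Of 84 recomputed counts and medians, 64 stayed within 1.5 times the count or 0.1 of the median, 20 moved and 0 reversed. For MDA-MB-436 minus MCF10A, the members past the threshold numbered 3 after quantile normalization, 4 at 2-fold and 0 at 8-fold, and their median was 1.12 after centring. For HT-29 minus MDA-MB-436, they numbered 0 at 8-fold and their median was 1.55 after quantile normalization. Related-list genes in MDA-MB-436 minus MCF10A fell from 3 to 1 after quantile normalization, with the stricter filter, with the background floor and at 8-fold, and were 11 at 2-fold; those in HT-29 minus MCF10A were 16 at 2-fold, and in HT-29 minus MDA-MB-436 16 at 2-fold and 2 at 8-fold. All genes past 2-fold and 8-fold numbered 2921 and 569, 2521 and 373, and 3240 and 623 for HT-29 minus MCF10A, MDA-MB-436 minus MCF10A and HT-29 minus MDA-MB-436. A change of fold moves a count by its construction; the cause of the other changes was not tested. No paired analysis was possible because each group has 1 array.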

Other observations

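The ISRE-type pattern (GAAA, any 2 bases, GAAA) was also counted over all genes compared that had a promoter window. It was in at least 1 window of 4.23% of 11523 genes. Where HT-29 passed 4-fold over MCF10A it was in 15.4% of genes (73 of 475), and where HT-29 was as much lower in 4.29% (16 of 373). For MDA-MB-436 against MCF10A the shares were 7.62% (31 of 407 higher genes) and 4.83% (10 of 207 lower genes). The GAS-type pattern TTCNNNGAA was in 9.38% of all genes, and in 15.6% of the higher and 11% of the lower genes in HT-29 against MCF10A. For MDA-MB-436 against MCF10A it was in 13% of the higher and 11.6% of the lower genes. These shares describe letters in the windows; no test was made, genes with several listed starts have more chances of a match, and genes that share a promoter count separately.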
